A study of Mus musculus with 24 samples.

Results

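Fibrillar and other collagens and the enzymes that process them were followed in mouse kidneys whose ureter was obstructed and then reopened. The set held every protein-coding collagen gene of the deposited table, leaving out the Col4a genes, Col15a1 and Col18a1 (mainly basement membrane collagens), together with the lysyl oxidases, the collagen prolyl and lysyl hydroxylases, Serpinh1, Pcolce, Pcolce2 and Bmp1. The GENCODE M21 annotation lists 51 such protein-coding genes. Of these, 32 were among the 14785 genes of the table, 19 of them collagens and 13 processing enzymes or helpers. The table holds only genes whose mean over the 24 libraries was at least 1, so a gene that is low in healthy kidney could enter it through its level in injured kidney. Of the 32 genes, 9 had a sham mean under 1 (Col5a1, Col6a4, Col8a1, Col9a3, Col20a1, Lox, Loxl2, Loxl3 and Loxl4), and 23 had a sham mean of at least 1. The other 19 annotated genes, among them Col2a1, Col10a1, Col11a1, Col24a1, P4ha3 and Pcolce2, were not analysed here.

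Collagens are proteins of 3 chains wound into a triple helix, which needs glycine as the first residue of each triplet. In the endoplasmic reticulum the P4ha enzymes hydroxylate prolines, which stabilises the helix, the Plod enzymes hydroxylate lysines, and the chaperone Serpinh1 (HSP47) binds the folded procollagen. Outside the cell Bmp1 removes the C-terminal propeptide of the fibrillar procollagens, helped by Pcolce, and the lysyl oxidases Lox and Loxl1 to Loxl4 oxidise lysines so that fibrils become cross-linked. In the kidney interstitial collagen is made mostly by fibroblasts and pericytes, and its build-up is the hallmark of fibrosis.

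The animals were male C57/BL6 mice, aged 8 weeks per the sample labels. In unilateral ureter obstruction (UUO) the ureter of a kidney is tied off, and in the reversible form it is later reimplanted so that urine can drain again. There were 6 groups of 4 animals. One had sham surgery (sham), UUO2 had a tied ureter for 2 days and UUO7 for 7 days. The remaining 3 had 7 days of obstruction, reversal surgery and then 1 week (R1W), 2 weeks (R2W) or 4 weeks (R4W) of repair. RNA of the kidney was sequenced after polyA selection. The series title speaks of kidney cortex while the sample labels say kidney, and per the design text 4 of 10 animals in each group were chosen for sequencing, with no criterion given in the sources used here. The time at which sham kidneys were taken was not given in those sources either. The title of R4W replicate 2 says 4 weeks and its treatment label 2 weeks, and it was kept in R4W.

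Values are FPKM, that is, fragments scaled to transcript length and to the size of the library. The deposited table does not name its unit, and FPKM was inferred from the values. Whole-read steps among low values gave an implied depth of 25200000 to 35500000 fragments in the 20 libraries outside UUO2. The 4 UUO2 libraries showed no such steps, so their depth is not known. The design text speaks of 20 libraries sequenced together, without naming them, while the series holds 24. In the UUO2 libraries the mitochondrial ribosomal RNA Mt-Rnr1 stood at 2343 to 2832 FPKM, against 342 to 709 FPKM elsewhere. Whatever set these libraries apart cannot be told apart from 2 days of obstruction. The summed FPKM of 7 fibroblast and pericyte markers (Pdgfra, Pdgfrb, Dcn, Lum, Postn, Acta2 and Tagln, all detected) was 40.4 to 96.7 in sham and 369 to 468 in UUO7, while that of 4 proximal tubule markers was 3187 to 3728 in sham and 730 to 896 in UUO7. Markers of proximal tubule, distal nephron and podocytes, which define kidney, were above 0 in every library. Of 5 adipose markers 4 were in the table, and their sum was 281 in sham replicate 2, 1558 in R4W replicate 1 and 384 in R4W replicate 3, against 37.1 to 191 in the other 21 libraries. Sham replicate 2 also had a urothelial marker sum of 34.2, against 1.45 to 2.31 in the other sham libraries. The part of these cell types in the results below was not tested.

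Differences were tested with limma on log2(FPKM + 1) over all 14785 genes, with the Benjamini-Hochberg adjustment, and genes with an adjusted p under 0.05 are those called higher or lower. A log2 fold change on this scale understates the change of genes near 0. FPKM are relative to the whole library, and between UUO7 and sham the median of all genes shifted by 0.42 on the log2 scale. Every comparison was therefore repeated after rescaling each library to the geometric mean of the libraries by the median over genes, and the rescaled counts are given beside those on the deposited scale, with the genes of the set whose call changed. In bulk kidney RNA, more cells of a type and more RNA per cell cannot be told apart.

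The glycine repeat that defines the family can be read in the coding sequence. Stretches of 90 bases from the start of the longest run of such triplets are shown for 5 genes. They come from GENCODE M21 transcripts on GRCm38 and run 5′ to 3′, with the first codon of each triplet, which encodes glycine, in capitals. Glycine codons at the other positions are in lower case.
Col3a1: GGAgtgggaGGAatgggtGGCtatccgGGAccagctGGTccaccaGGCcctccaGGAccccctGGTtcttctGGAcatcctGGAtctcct
Col1a1: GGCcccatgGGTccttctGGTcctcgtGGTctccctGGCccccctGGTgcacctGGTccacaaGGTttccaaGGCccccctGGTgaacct
Col27a1: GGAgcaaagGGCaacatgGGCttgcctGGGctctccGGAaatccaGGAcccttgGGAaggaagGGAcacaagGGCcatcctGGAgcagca
Col12a1: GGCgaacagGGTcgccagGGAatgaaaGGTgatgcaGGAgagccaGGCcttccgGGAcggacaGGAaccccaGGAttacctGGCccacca
Col6a1: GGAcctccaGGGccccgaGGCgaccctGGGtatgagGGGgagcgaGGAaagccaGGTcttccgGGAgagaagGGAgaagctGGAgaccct

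The unbroken run was longest in the classical fibril-forming chains, at 344 triplets in Col3a1, 339 in Col1a2 and Col5a2, 338 in Col1a1 and Col5a1, and 337 in Col5a3. It filled 70.5% of the 1464 codons of Col3a1. Col27a1, also classed as fibril-forming, had a run of 217 triplets, Col6a1 and Col6a2 had 87, and Col12a1 and Col14a1, which lie on the surface of fibrils, had 32. The run length is a property of the sequence, and no relation to expression was tested.

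Obstruction for 7 days raised nearly the whole set. Against sham, 29 of the 32 genes were higher in UUO7, 1 was lower (Col27a1), and 2 did not pass the test (Col26a1 and Loxl4). Among all genes 60.1% were higher and 17.8% lower, so a count of higher genes has to be read against that share. After rescaling, 27 of the 32 were higher and 1 lower, against 36.5% higher and 36.5% lower among all genes. The 2 calls lost on rescaling were P4ha1 and Plod2. Among the 23 genes with a sham mean of at least 1, 21 were higher and 1 lower, or 19 and 1 after rescaling. The median log2 fold change of the 32 genes was 1.91, beside 0.42 for all genes. The authors' deposited table gave 27 of the 32 genes higher and 1 lower at an adjusted p under 0.05, against 35.8% higher and 37.9% lower of its genes with an adjusted p.

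**Figure D1:**
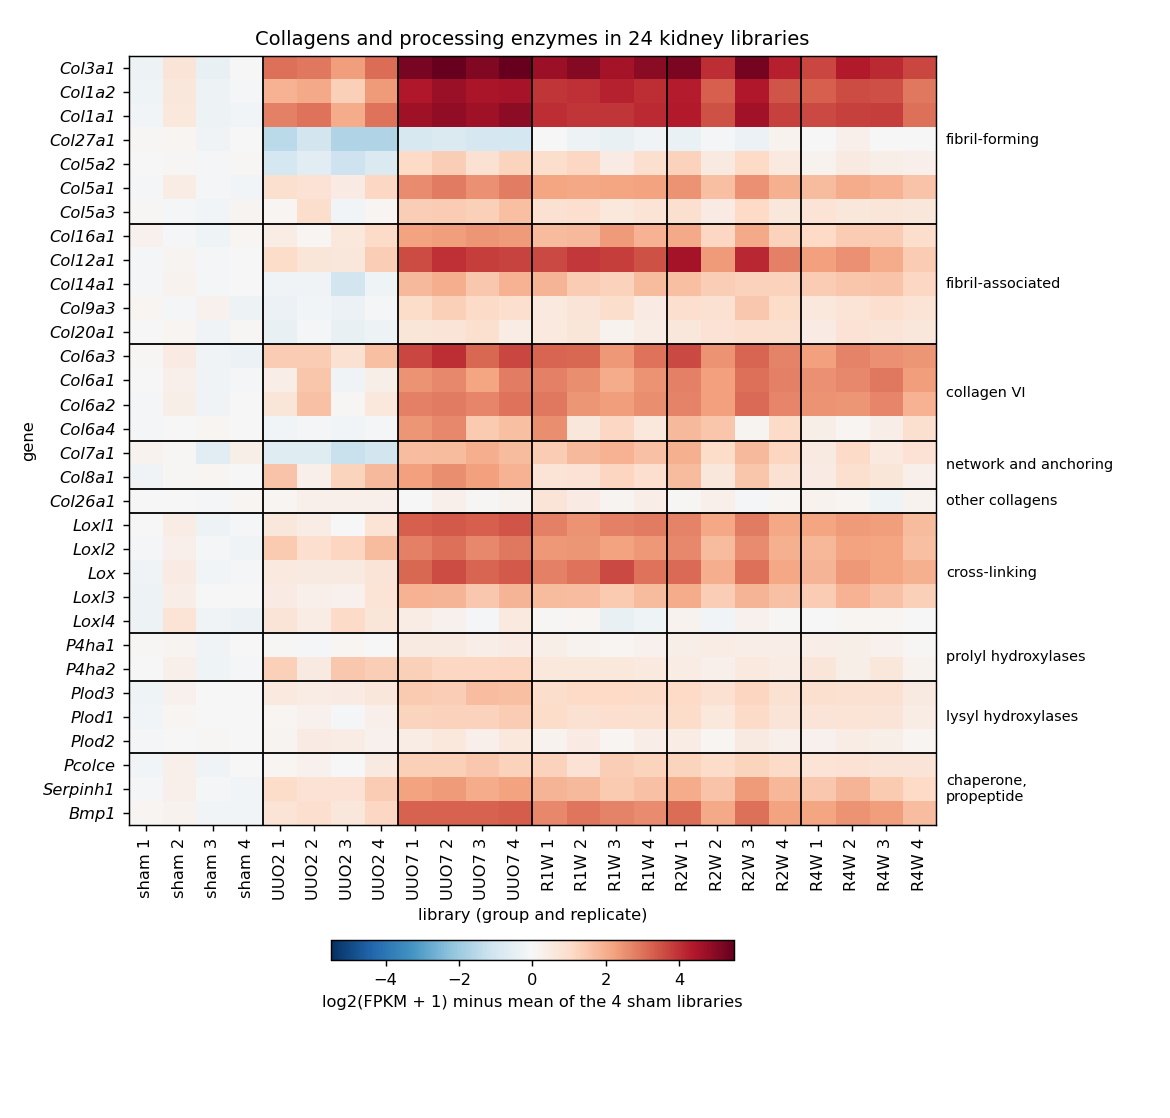
Heat map of log2(FPKM + 1) minus the mean of the 4 sham libraries, on a colour scale from blue (lower) to red (higher), for the 32 genes (vertical axis, grouped by role) in the 24 libraries (horizontal axis, grouped by condition). Col3a1, Col1a2 and Col1a1 are the darkest red in UUO7, while Col27a1 is blue in UUO2 and UUO7 and near white after reversal.

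The fibril-forming collagens held the largest changes. Col3a1 (ENSMUSG00000026043.18, chr1:45311538-45349706 on GRCm38), the chain of type III collagen, stood at 4.76, 10.7, 4.26 and 5.96 FPKM in the 4 sham kidneys. It reached 265, 347, 242 and 315 FPKM in UUO7 and was still at 89.7, 145, 119 and 90.03 FPKM in R4W. No value of one of these groups fell within the range of another. The log2 fold change was 5.37 (SE 0.27, limma adjusted p = 4.63e-12) in UUO7 against sham and -1.40 (SE 0.27, adjusted p = 0.000296) in R4W against UUO7, which left R4W 3.96 (SE 0.27, adjusted p = 7.16e-10) above sham.

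The 2 chains of type I collagen, the main fibre of scar tissue, were also higher in UUO7 than in sham and lower in R4W than in UUO7. Col1a1 (ENSMUSG00000001506.10, chr11:94936224-94953042) was at 1.80, 3.71, 1.56 and 1.77 FPKM in sham and at 76.8, 91.1, 76.8 and 92.5 FPKM in UUO7. In R4W it was at 37.8, 41.6, 42.2 and 24.2 FPKM. Each group lay apart from the other groups named, with sham replicate 2 the highest of the sham kidneys. Col1a2 (ENSMUSG00000029661.16, chr6:4504814-4541544) was at 4.61, 9.06, 4.46 and 5.20 FPKM in sham, at 137, 175, 149 and 153 FPKM in UUO7, and at 63.5, 78.5, 75.6 and 47.8 FPKM in R4W. The log2 fold changes in UUO7 were 4.77 (SE 0.24) for Col1a1 and 4.54 (SE 0.24) for Col1a2, and in R4W against UUO7 they were -1.21 and -1.22, all called by limma.

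Type V collagen, a minor partner of type I that sets fibril diameter, changed less. Col5a1 had a sham mean of 0.805 FPKM ± 0.378 (SD, n = 4), rose to 10.6 ± 1.31 in UUO7 and was at 5.34 ± 0.878 in R4W. The log2 fold changes in UUO7 against sham were 2.70 for Col5a1, 1.43 for Col5a3 and 1.12 (0.68 after rescaling) for Col5a2. Col5a2 was at 5.95 to 6.74 FPKM in sham, fell to 2.35 to 3.80 in UUO2, rose to 12.1 to 17.9 in UUO7, and lay at 7.41 to 9.45 in R4W. In R4W it was the one classical fibril-forming chain not called against sham (log2 fold change 0.32, 95% interval -0.03 to 0.67, limma adjusted p = 0.0941, and -0.01 after rescaling), although the fit of only the 2 groups called it.

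Col27a1 (ENSMUSG00000045672.15, chr4:63214004-63334991), a fibrillar collagen best known from cartilage, went the other way. It stood at 19.1, 19.5, 15.8 and 18.3 FPKM in sham, above every other collagen of the set there. It was at 5.93, 8.49, 5.01 and 5.06 FPKM in UUO2 and at 9.49, 10.1, 9.18 and 8.93 FPKM in UUO7, then at 17.9, 21.9, 17.9 and 17.8 FPKM in R4W. Sham and R4W overlapped, and both obstructed groups lay below them. The log2 fold change was -1.45 (SE 0.13, limma adjusted p = 3.97e-08) in UUO2 and -0.88 (SE 0.13, adjusted p = 4.90e-06, and -1.33 after rescaling) in UUO7 against sham, and 0.93 (SE 0.13, adjusted p = 2.58e-05) in R4W against UUO7. By limma it was the only one of the 32 genes called lower in UUO7 against sham and the only one called higher in R4W against UUO7, where the authors' deposited table had Col20a1 higher as well. On the deposited scale R1W, R2W and R4W were not called against sham, whereas after rescaling R1W (-0.65) and R2W (-0.51) were called lower. The authors' deposited table gave -0.74, -0.55 and -0.34 for these 3 comparisons, each with an adjusted p under 0.05. The summed proximal tubule markers were at 3187 to 3728 in sham, 1310 to 2193 in UUO2, 730 to 896 in UUO7 and 1573 to 2239 in R4W, so that R4W did not reach sham and UUO7, not UUO2, was lowest. The summed distal nephron markers were at 2386 to 2955 in sham, 962 to 2195 in UUO2, 1298 to 1661 in UUO7 and 2347 to 3043 in R4W, where they overlapped sham. The part of either in the Col27a1 result was not tested.

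**Figure D2:**
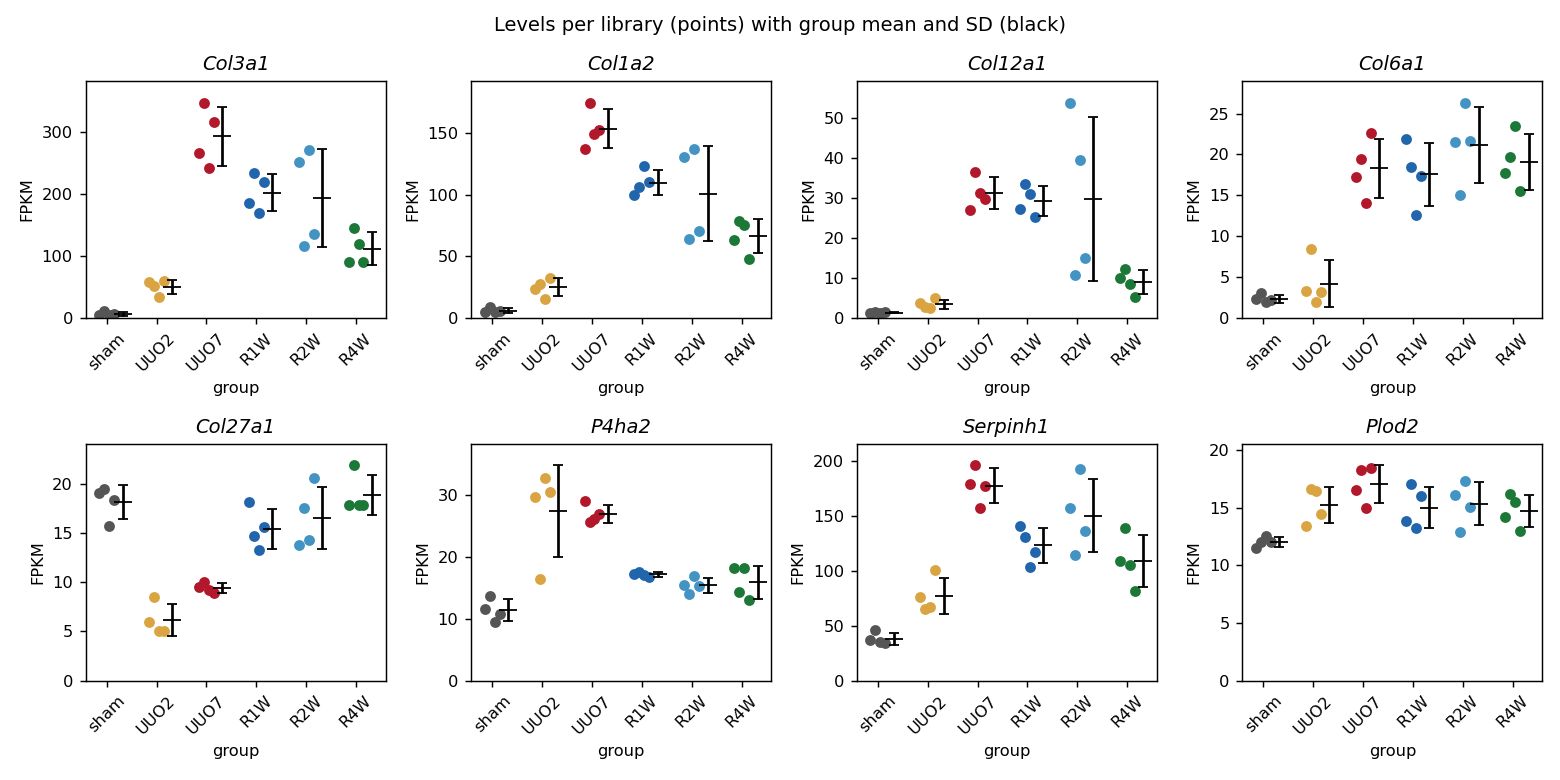
FPKM (vertical axis, starting at 0) of 8 genes in the 6 groups (horizontal axis), with a coloured point per library and the group mean with its SD in black. Col3a1 and Col1a2 peak in UUO7, Col6a1 stays between 12.6 and 26.4 FPKM from UUO7 onward, Col27a1 dips in UUO2 and UUO7, and P4ha2 is already high in UUO2.

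The promoters of a pair of chains that rose together and of Col27a1 are shown for comparison, as the 250 bases before the RefSeq start on the plus strand of GRCm38.p6, 5′ to 3′, with matches to the searched motifs in capitals. Col3a1 spans chr1:45311288-45311537, Col1a2 chr6:4505368-4505617 and Col27a1 chr4:63215162-63215411. For Col1a2 and Col27a1 the RefSeq start lies inside the gene span of the deposited table.
Col3a1: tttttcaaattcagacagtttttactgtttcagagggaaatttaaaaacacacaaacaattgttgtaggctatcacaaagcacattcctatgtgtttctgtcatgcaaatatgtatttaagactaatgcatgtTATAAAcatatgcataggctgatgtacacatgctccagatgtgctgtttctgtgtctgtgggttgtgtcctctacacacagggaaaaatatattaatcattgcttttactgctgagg
Col1a2: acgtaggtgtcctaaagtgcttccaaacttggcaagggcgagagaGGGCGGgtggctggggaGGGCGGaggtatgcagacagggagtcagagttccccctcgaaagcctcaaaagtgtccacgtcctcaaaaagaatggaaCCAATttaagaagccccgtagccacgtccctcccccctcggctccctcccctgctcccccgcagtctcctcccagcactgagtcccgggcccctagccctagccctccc
Col27a1: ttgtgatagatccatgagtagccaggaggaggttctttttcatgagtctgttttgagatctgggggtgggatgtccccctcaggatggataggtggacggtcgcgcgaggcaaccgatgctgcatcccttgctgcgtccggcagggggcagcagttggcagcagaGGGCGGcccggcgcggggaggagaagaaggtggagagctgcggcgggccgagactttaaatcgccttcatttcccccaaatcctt

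The windows differ in base composition, with 35.2% G and C in Col3a1, 62% in Col1a2 and 59.6% in Col27a1. The 5 letter patterns were searched on both strands, and 20 of the 32 genes were in the promoter table. The GC box GGGCGG was in the windows of 15 of those 20 genes and in 32.7% of all 32851 windows, and the CCAAT box CCAAT in 6 genes and 33.8%. The TATA box TATAAA was in 2 genes (Col3a1 and Plod1) and 12.4% of windows, and the AP-1 pattern TGANTCA in 1 gene (Col6a1) and 6.75%. The heat shock pattern GAANNTTC, found in 6.69% of all windows, matched in none of the 20. The Col3a1 match began 117 bases before the start, the Col1a2 matches 205, 188 and 109 bases before it, and the Col27a1 match 85 bases before it. A match is a description of letters and not a bound site.

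The fibril-associated collagens, which coat or link fibrils, were led by Col12a1 (ENSMUSG00000032332.17, chr9:79598991-79718831), a long chain found along type I fibrils. It was at 1.2, 1.54, 1.18 and 1.36 FPKM in sham, 27.1, 36.5, 31.4 and 29.9 in UUO7, and 27.3, 33.7, 31.0 and 25.3 in R1W. In R4W it was at 9.99, 12.2, 8.51 and 5.12 FPKM, below every UUO7 and R1W kidney and above every sham kidney. The log2 fold change was 3.79 (SE 0.33, limma adjusted p = 2.90e-09) in UUO7 against sham, -0.09 (95% interval -0.78 to 0.61, adjusted p = 0.893) in R1W against UUO7, and -1.65 (SE 0.33, adjusted p = 0.00526) in R4W against R1W. The R2W kidneys spread from 10.8 to 54.0 FPKM, with replicates 1 and 3 at 54.0 and 39.5 and replicates 2 and 4 at 10.76 and 15.04.

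Col16a1, a fibril-linking collagen of many tissues, had a sham mean of 7.04 FPKM ± 1.11 (SD, n = 4), rose to 39.0 ± 2.47 in UUO7 and was at 17.7 ± 2.77 in R4W. With single libraries left out, its log2 fold change was 2.25 to 2.40 in UUO7 against sham and -1.17 to -1.03 in R4W against UUO7. The authors' deposited table gave smaller changes, 1.23 and -0.55. Col14a1, which like Col12a1 decorates fibrils, was at 3.99 to 5.09 FPKM in sham, 1.68 to 3.68 in UUO2, 14.1 to 20.9 in UUO7 and 10.8 to 14.98 in R4W. Its fall from UUO7 to R4W was not called (log2 fold change -0.39, limma adjusted p = 0.0601), but it was called with a pseudocount of 10, with only the 2 groups fitted, without UUO2 and without UUO7 replicate 3, and in the authors' deposited table (-0.39, adjusted p = 0.00711). The low-level Col9a3 and Col20a1 were higher in UUO7 by 1.07 and 0.67 on the log2 scale, and limma called neither between R4W and UUO7 (-0.32, and -0.02 or 0.04 after rescaling). Col9a3 was called there when only the 2 groups were fitted, and the authors' deposited table had Col20a1 higher (0.57, adjusted p = 0.0019).

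Collagen VI, a beaded microfilament of 3 different chains, separated into chains that fell after reversal and chains that did not pass the test. Col6a1 (ENSMUSG00000001119.7, chr10:76708792-76726168) was at 2.28, 3.01, 1.93 and 2.13 FPKM in sham, 17.2, 19.5, 14.1 and 22.6 in UUO7, and 17.8, 19.7, 23.5 and 15.5 in R4W. UUO7 and R4W overlapped, and both lay above every sham kidney. The log2 fold change was 2.53 (SE 0.26, limma adjusted p = 1.79e-08) in UUO7 against sham and 0.06 (95% interval -0.47 to 0.59, adjusted p = 0.864) in R4W against UUO7. Col6a2, its neighbour on chromosome 10, was higher by 2.81 in UUO7 and changed by -0.43 (interval -0.93 to 0.06, adjusted p = 0.14) to R4W, which was called when these 2 groups alone were fitted and in the authors' deposited table (-0.36, adjusted p = 0.0304).

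Col6a3 (ENSMUSG00000048126.16, chr1:90765923-90843971), the largest chain of the trimer, stood at 2.57, 3.61, 1.91 and 1.68 FPKM in sham and at 42.6, 55.4, 29.2 and 41.7 FPKM in UUO7. In R4W it was at 15.2, 21.0, 18.1 and 17.4 FPKM, below every UUO7 kidney. Its log2 fold changes were 3.65 (SE 0.24) in UUO7 against sham and -1.17 (SE 0.24, limma adjusted p = 0.000639) in R4W against UUO7. Whether Col6a3 and Col6a1 differed in their change was not tested. The minor chain Col6a4 was uneven, at 0.17 to 0.31 FPKM in sham, 2.34 to 6.54 in UUO7 and 0.32 to 1.26 in R4W, with 6.23 in R1W replicate 1 and 0.84 to 1.67 in the other R1W kidneys.

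Col7a1 encodes the anchoring fibril that fastens epithelium to stroma. It was at 3.28, 2.92, 1.52 and 3.61 FPKM in sham, 1.34, 1.39, 0.62 and 0.83 in UUO2, and 11.2, 11.3, 13.8 and 11.6 in UUO7, so that each obstructed group lay on its own side of sham. R1W was still at 8.77 to 13.0 FPKM and R4W at 4.22 to 6.81. R4W against R1W gave a log2 fold change of -0.96 (SE 0.21, limma adjusted p = 0.00699). Col8a1, a short-chain collagen of vessel walls, was lower within a week of reversal. It was at 0.49 to 0.85 FPKM in sham, 5.46 to 9.09 in UUO7, 1.93 to 2.92 in R1W and 1.1 to 2.21 in R4W. R1W against UUO7 was -1.32 (SE 0.26, adjusted p = 0.00327), the largest fall of the 32 genes in that week. In R4W Col8a1 was not called against sham (0.57, adjusted p = 0.0586), but it was called with a pseudocount of 0.1, with only the 2 groups fitted, without UUO2 and without R4W replicate 4, and in the authors' deposited table (0.74, adjusted p = 0.00603). Col26a1 kept to 2.24 to 5.24 FPKM in all 24 libraries and was not called in UUO7 against sham.

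Of the 5 cross-linking enzymes only Loxl1 had a sham mean of at least 1. The others could enter the table through their level in injured kidney, so their number called in UUO7 is not set against that of all genes. Lox (ENSMUSG00000024529.13), which oxidises lysines of collagen and elastin, was at 0.29, 1.06, 0.34 and 0.40 FPKM in sham and at 12.5, 16.8, 12.9 and 14.6 FPKM in UUO7. It was at 4.39, 6.72, 5.76 and 4.85 FPKM in R4W, between the other groups and overlapping neither. Loxl1, linked to elastic fibres, was at 1.99, 3.06, 1.51 and 1.86 FPKM in sham, 28.4, 30.8, 29.1 and 32.4 in UUO7, and 12.8, 14.6, 13.9 and 9.30 in R4W. The log2 fold changes in UUO7 against sham were 3.35 (SE 0.18) for Loxl1, 3.34 (SE 0.22) for Lox, 2.84 (SE 0.19) for Loxl2 and 1.79 (SE 0.17) for Loxl3, all called by limma.

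R4W against UUO7 was -1.24 for Lox, -1.21 for Loxl1 and -0.87 for Loxl2, all called, and -0.24 (95% interval -0.59 to 0.11, limma adjusted p = 0.241) for Loxl3, and the difference between family members was not tested. Loxl4 followed another course. It was at 1.48 to 2.98 FPKM in UUO2 against 0.58, 2.16, 0.68 and 0.53 in sham (0.71, adjusted p = 0.00475), and it was lower in UUO7 than in UUO2 (-0.46, adjusted p = 0.045). That last call was lost with a pseudocount of 0.1 and without any one of UUO2 replicates 1, 3 and 4 and UUO7 replicates 2 and 3, while the authors' deposited table had Loxl4 lower (-1.10, adjusted p = 0.000142). In UUO7 against sham it was called higher, among the settings run, only without sham replicate 2 and without the 3 libraries of raised adipose markers. Loxl3 shares 535 exonic bases with Htra2 and Loxl2 shares 301 with Gm27177, each on the opposite strand, and Col3a1 shares 141 with the predicted miRNA gene Gm47302 on its own strand. Whether counting used the strand is not given in the sources used here.

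**Figure D3:**
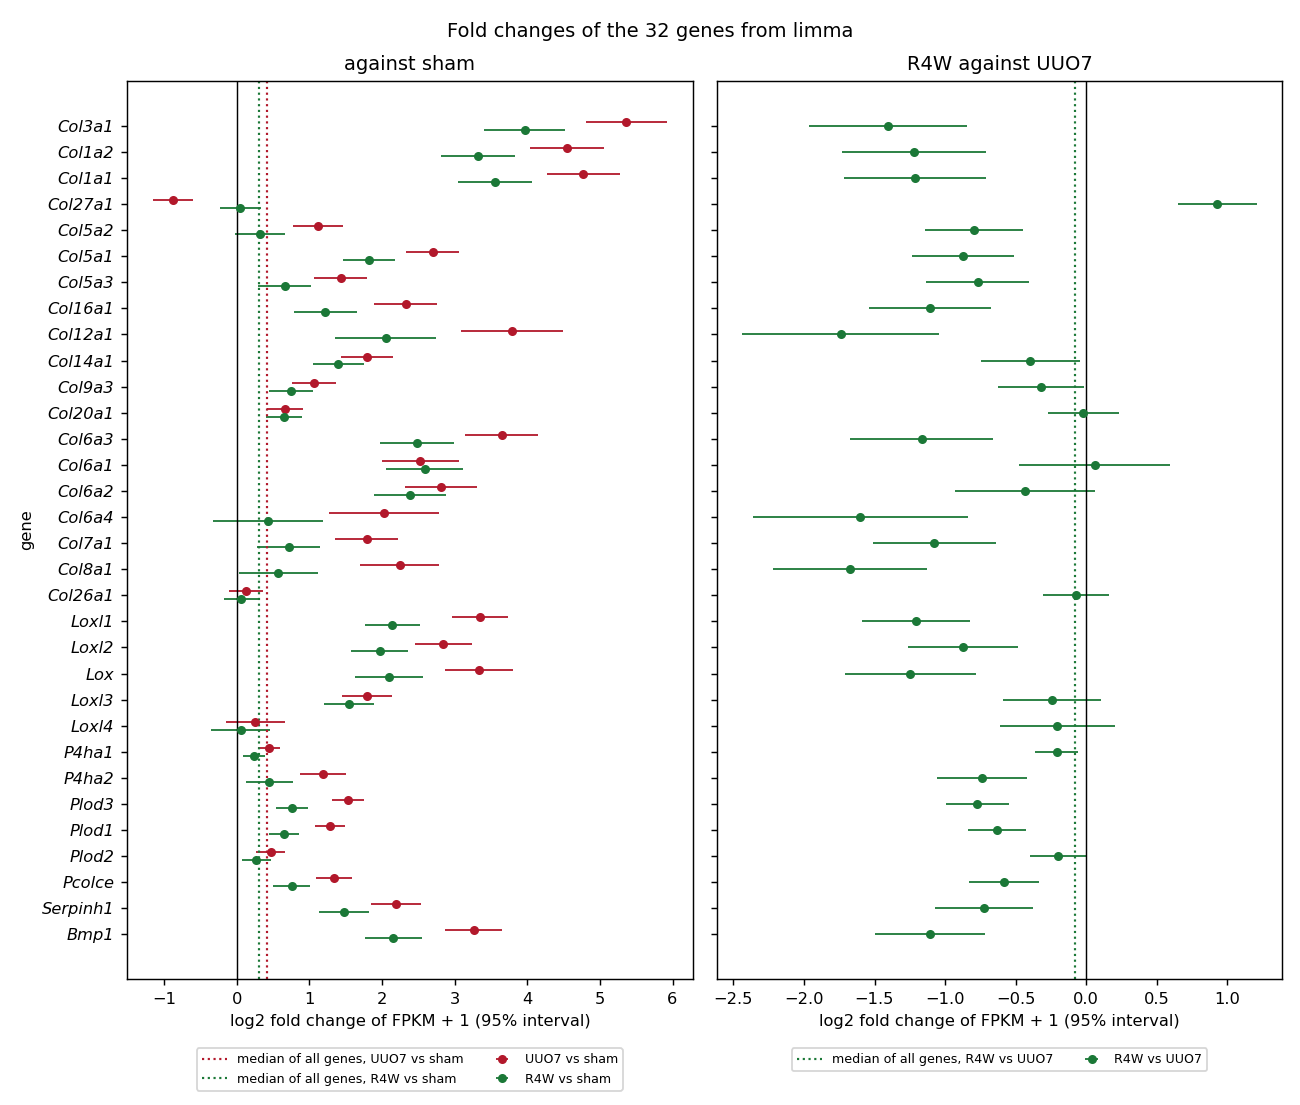
Log2 fold change of FPKM + 1 (horizontal axis) with its 95% interval for each of the 32 genes (vertical axis), on the left for UUO7 (red) and R4W (green) against sham and on the right for R4W against UUO7. Dotted lines mark the median of all genes, and Col27a1 lies to the left of 0 in the left panel for UUO7 and to the right of 0 in the right panel, where Col6a1, Col20a1 and Col26a1 sit near 0.

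The prolyl hydroxylase subunits had sham levels of 9.5 to 17.9 FPKM, and P4ha2 was the one that changed under both scalings. P4ha2 (ENSMUSG00000018906.14, chr11:54100095-54131665), a catalytic subunit of the enzyme, was at 11.5, 13.7, 9.50 and 10.8 FPKM in sham. By day 2 it stood at 29.8, 16.4, 32.9 and 30.6 FPKM and at day 7 at 29.1, 25.7, 26.2 and 26.9. Both obstructed groups lay above all sham kidneys and overlapped each other. The log2 fold change was 1.16 (SE 0.15, limma adjusted p = 3.38e-06) in UUO2 and 1.19 (SE 0.15, adjusted p = 5.07e-07) in UUO7 against sham, and 0.02 (95% interval -0.30 to 0.34) between the 2. After rescaling these were 1.05, 0.73 and -0.32, the last not called, and the authors' deposited table gave 1.17, 0.76 and -0.40. It had fallen by R1W (16.8 to 17.6 FPKM, -0.62, adjusted p = 0.0115) and was at 13.0 to 18.3 FPKM in R4W. P4ha1, the more general catalytic subunit, was at 13.9 to 17.9 FPKM in sham and 21.1 to 23.2 in UUO7. Its log2 fold change of 0.45 was called on the deposited scale and was -0.01 after rescaling.

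The lysyl hydroxylases were higher in UUO7 by 0.47 to 1.53 on the log2 scale. Plod3, which also adds sugars to hydroxylysine, was at 17.4, 25.0, 20.5 and 21.0 FPKM in sham and at 57.6, 55.2, 69.4 and 67.0 FPKM in UUO7. R4W kidneys stood at 39.1, 38.5, 37.7 and 29.5 FPKM, between the 2 groups without overlap. Its log2 fold change was 1.53 (SE 0.11, limma adjusted p = 1.89e-10) in UUO7 and 0.76 (SE 0.11) in R4W against sham. Plod1, the hydroxylase of helical lysines, was higher by 1.28 in UUO7 and 0.65 in R4W. After rescaling Plod1 was higher by 0.82 and 0.30, and Plod3 in R4W by 0.40. Plod2, which acts on the telopeptides, was at 11.5 to 12.6 FPKM in sham and 14.99 to 18.4 in UUO7, a change of 0.47 that was called on the deposited scale and was 0.01 after rescaling. Plod3 shares 529 exonic bases with Znhit1 on the opposite strand.

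Serpinh1 (ENSMUSG00000070436.12, chr7:99345376-99353239), the collagen chaperone, was at 36.5, 45.7, 35.4 and 34.4 FPKM in sham and at 179, 196, 157 and 177 FPKM in UUO7. In R4W it was at 109, 139, 105 and 81.2 FPKM, between the other groups without overlap. The log2 fold change was 2.20 (SE 0.17, limma adjusted p = 4.02e-10) in UUO7 and 1.47 (SE 0.17) in R4W against sham. Bmp1, the C-propeptide protease, was at 2.49, 2.74, 1.96 and 1.97 FPKM in sham, 29.7, 30.5, 29.8 and 31.8 in UUO7, and 13.9, 17.0, 14.9 and 9.66 in R4W, a log2 fold change of 3.26 (SE 0.19) in UUO7. Its enhancer Pcolce was abundant from the start, at 57.8 to 80.3 FPKM in sham, 159 to 186 in UUO7 and 110 to 117 in R4W, and was higher by 1.33 (SE 0.12) in UUO7. After rescaling this was 0.85, and the authors' deposited table gave 0.50, with each of the 3 called.

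Obstruction for 2 days gave a mixed picture. In UUO2 against sham limma called 19 of the 32 genes higher, 5 lower and 8 not, while 32.3% of all genes were higher and 17% lower. After rescaling 16 were higher and 5 lower, against 25.3% and 25.5% of all genes, and the calls lost were Col16a1, Loxl1 and Plod2. Among the 23 genes with a sham mean of at least 1, 13 were higher and 4 lower, or 10 and 4 after rescaling. Of the 19 higher calls, 6 rested on single kidneys. Those of Lox, Loxl1 and Loxl3 were lost without sham replicate 1, 3 or 4 and without UUO2 replicate 1 or 4, Lox also without UUO2 replicate 3 and Loxl1 without UUO2 replicate 2. Col12a1 was lost without sham replicate 1 or 3 or UUO2 replicate 1 or 4, Col16a1 without sham replicate 2 or 3 or UUO2 replicate 3 or 4, and Col6a2 without UUO2 replicate 2. The authors' deposited table did not call Col16a1 (0.08, adjusted p = 0.654) or Loxl1 (0.53, adjusted p = 0.0746) there. The highest changes were in Col3a1 (2.83, at 33.8 to 58.7 FPKM), Col1a1 (2.69), Col1a2 (1.92), Loxl2 (1.33), Col6a3 (1.32) and Col8a1 (1.22). The 5 lower genes were Col27a1 (-1.45), Col7a1 (-0.89), Col5a2 (-0.88), Col14a1 (-0.42) and Col20a1 (-0.31). The Col14a1 call was lost without any one of the 4 sham kidneys, without UUO2 replicate 3, with only the 2 groups fitted, with a pseudocount of 10 and without the libraries of raised adipose markers, and the authors' deposited table did not call it (adjusted p = 0.0951). The Col20a1 call was lost without sham replicate 1, 2 or 4, without UUO2 replicate 1, 3 or 4, with a pseudocount of 10 and without the libraries of raised adipose markers, while the authors' deposited table had it lower (-1.09, adjusted p = 0.000114). These libraries stood apart in Mt-Rnr1 and in read steps, as given above, and with a pseudocount of 10 the count fell to 12 higher and 2 lower.

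UUO7 against UUO2 gave 28 genes higher, 1 lower (Loxl4) and 3 not called (Col26a1, P4ha2 and Plod2), where 52% of all genes were higher and 14.7% lower. Of the 28, 16 had been called higher in UUO2 against sham, 7 had not been called there and 5 had been lower. After rescaling 26 were higher and 2 lower (Loxl4 and Col26a1), against 30% and 31.9% of all genes. Of the 23 genes with a sham mean of at least 1, 20 were higher and none lower, or 18 and 1 after rescaling. The calls lost on rescaling were Col27a1 (0.57, and 0.26 after rescaling) and P4ha1 (0.40, and 0.07 after rescaling). The largest of these rises were in Loxl1 (2.90), Col12a1 (2.88), Lox (2.77), Col7a1 (2.68) and Col1a2 (2.62).

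A week after reversal part of the set was lower than at day 7. The median log2 fold change of the 32 genes was -0.38, beside -0.02 for all genes. R1W against UUO7 gave 10 lower, 1 higher (Col27a1, 0.65) and 21 not called, where 8.04% of all genes were lower and 6.47% higher. The lower genes were Col8a1 (-1.32), Col1a1 (-0.77), Col5a3 (-0.66), Loxl1 (-0.64), P4ha2 (-0.62), Serpinh1 (-0.53), Col5a1 (-0.52), Plod3 (-0.48), Plod1 (-0.36) and P4ha1 (-0.23, not called after rescaling, when Bmp1 was called instead). After rescaling the counts were again 10 and 1, against 7.14% and 7.26% of all genes. Col3a1 (-0.53, limma adjusted p = 0.187) and Col1a2 (-0.48, adjusted p = 0.191) were not called. With only these 2 groups fitted 15 genes were called, Col3a1 and Col1a2 among them, and a pseudocount of 10 gave 14 without these 2. The authors' deposited table had 14 of the 32 genes lower and 1 higher, against 11.2% and 10.3% of its genes, with Col3a1 (-0.49, adjusted p = 0.000623) and Col1a2 (-0.46, adjusted p = 0.000595) lower. The count also rested on single kidneys: it was 4 without UUO7 replicate 4, 6 without R1W replicate 4, and 7 without UUO7 replicate 1, UUO7 replicate 2 or R1W replicate 2. Col8a1, Col27a1, P4ha2 and Plod3 were called in each of those fits. The calls of Col1a1 and Col5a1 were lost without any one kidney of the 2 groups and with a pseudocount of 0.1. They were kept after rescaling, with a pseudocount of 10 and with only the 2 groups fitted. The authors' deposited table had both lower (-0.76 and -0.56).

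By 4 weeks the fall from day 7 was broad. R4W against UUO7 gave 22 lower, 1 higher (Col27a1) and 9 not called, where 30.8% of all genes were lower and 17.6% higher. After rescaling 21 were lower and 1 higher, against 23.2% and 25.1% of all genes, and the call lost was P4ha1. Of the 23 genes with a sham mean of at least 1, 17 were lower and 1 higher, or 16 and 1 after rescaling. The largest falls were in Col12a1 (-1.74), Col8a1 (-1.67), Col6a4 (-1.60) and Col3a1 (-1.40). The genes not called were Col6a1, Col6a2, Col9a3, Col14a1, Col20a1, Col26a1, Loxl3, Loxl4 and Plod2. The median of the 32 genes was -0.77, beside -0.08 for all genes.

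Between R1W and R4W 11 genes were called lower, where 14.1% of all genes were lower and 5.06% higher. After rescaling 8 were lower, against 8.6% of all genes lower and 8.67% higher, and Col26a1, Loxl1 and Pcolce were lost. The 8, with their log2 fold changes on the deposited scale, were Col12a1 (-1.65), Lox (-0.997), Col7a1 (-0.96), Col3a1 (-0.87), Col1a2 (-0.74), Col16a1 (-0.73), Bmp1 (-0.58) and Col5a2 (-0.53). The count was 2 (Col12a1 and Col7a1) when only these 2 groups were fitted, and 1 (Col12a1) without the 3 libraries of raised adipose markers. It was 4 without R4W replicate 1 or 4, 5 without R1W replicate 3, 6 without R1W replicate 2 or 4, and 7 without R4W replicate 3.

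Most of the set was still above sham after 4 weeks. Against sham, 30 genes were higher in R1W (59.4% of all genes), 29 in R2W (56.1%) and 26 in R4W (54.8%), and none was lower, where 14.7%, 12.9% and 11.6% of all genes were. After rescaling these counts were 25, 26 and 22, against 33.7%, 31.1% and 28.9% of all genes. Among the 23 genes with a sham mean of at least 1, the counts were 22, 21 and 20, or 18, 18 and 16 after rescaling. The calls lost were Col20a1, Col26a1, P4ha2 and Plod2 in R1W, and P4ha1, P4ha2 and Plod2 in R2W, with 2 genes lower in R1W (Col27a1 and P4ha1) and 1 in R2W (Col27a1), where 34.6%, 32.5% and, in R4W, 31.1% of all genes were lower. The genes not called in R4W on the deposited scale were Col5a2, Col6a4, Col8a1, Col26a1, Col27a1 and Loxl4, joined after rescaling by Col7a1, P4ha1, P4ha2 and Plod2. P4ha1 in R1W was called higher on the deposited scale (0.21) and lower after rescaling (-0.21). These comparisons, and UUO2 and UUO7 against sham, share the same 4 sham kidneys. The sums of 6 marker lists in R4W were also above those of sham, at 208 to 337 for fibroblasts and pericytes (40.4 to 96.7 in sham), 456 to 874 for macrophages (31.7 to 44.8), 42.6 to 141 for urothelium (1.45 to 34.2), 84.3 to 120 for podocytes (33.8 to 37.2), 102 to 124 for endothelium (41.1 to 75.8) and 20.35 to 27.6 for smooth muscle (6.13 to 14.4). Their part in the levels of R4W was not tested.

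Summed over the 19 collagens, FPKM ranged from 55.9 to 81.5 in sham, 102 to 177 in UUO2, 678 to 879 in UUO7, 514 to 580 in R1W, 348 to 710 in R2W and 280 to 420 in R4W. The 4 R2W kidneys were at 694, 348, 710 and 406, and the SD of log2(FPKM + 1) was widest in R2W for 18 of the 32 genes, where it was widest for 23.1% of all genes. The same 4 kidneys had fibroblast and pericyte marker sums of 350, 211, 341 and 259, and proximal tubule marker sums of 1186, 2194, 1103 and 1812. Their macrophage marker sums were 1233, 473, 978 and 630, high and low in the same kidneys as the collagens. Macrophage markers had summed to 31.7 to 44.8 in sham and 388 to 518 in UUO7, and endothelial markers to 41.1 to 75.8 and 112 to 126. The part of any of these cell types in that spread was not tested.

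Ratios within a library do not depend on how it was scaled. The ratio of Col1a2 to Col1a1 was 2.44 to 2.94 in sham and 1.65 to 1.95 in UUO7, a log2 difference of -0.56 (two-sided exact permutation p = 0.0286, the smallest that 4 against 4 allows, and 0.0762 after adjustment over 8 tests). Serpinh1 to Col1a1 went from 12.3 to 22.7 in sham to 1.91 to 2.33 in UUO7 (log2 difference -3.11, adjusted permutation p = 0.0762) and back up to 2.49 to 3.36 in R4W (0.51 from UUO7, adjusted permutation p = 0.0762). In these 3 cases the groups did not overlap, and none passed the adjusted threshold. With a pseudocount of 1 in both genes Serpinh1 in R4W against UUO7 passed (0.49, adjusted permutation p = 0.0457). Its unadjusted p was already the smallest possible, so the adjusted p fell only because comparisons with sham joined it at that value. Nothing is read from this pass. For the comparisons with sham nothing is read from the pseudocount either, because Col1a1 and Lox were so low there that the added 1 sets much of the ratio. Col3a1 to Col1a1 was 2.64 to 3.37 in sham, 3.15 to 3.81 in UUO7 and 2.38 to 3.73 in R4W, with overlap between the groups. Lox to Col1a1 was 0.161 to 0.286 in sham, 0.158 to 0.184 in UUO7 and 0.116 to 0.201 in R4W, and was 0.047 to 0.0961 in UUO2.

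**Figure D4:**
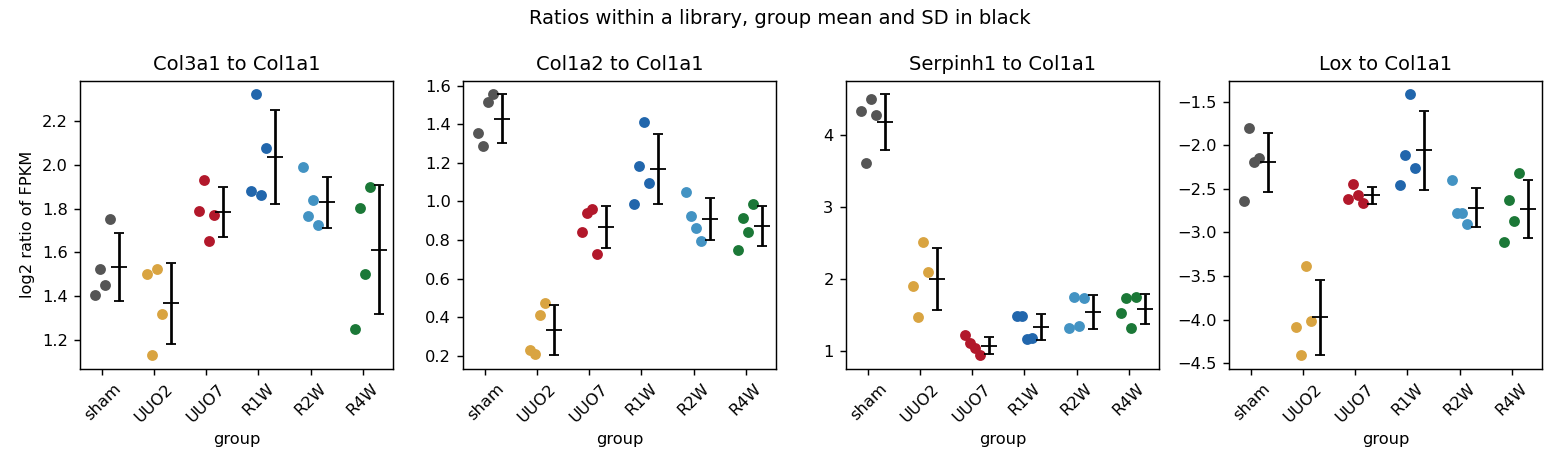
Log2 ratio of the FPKM of Col3a1, Col1a2, Serpinh1 and Lox to that of Col1a1 (vertical axes, each with its own range) in the 6 groups (horizontal axis), with a point per library and the group mean with its SD in black. The Serpinh1 ratio is highest in sham, where its mean log2 value is 4.19, and lowest in UUO7, where it is 1.08.

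Other genes of collagen making and sensing were read from a list of 24, of which 19 were in the table. In UUO7 against sham 15 of the 19 were higher and 4 lower, where 60.1% of all genes were higher and 17.8% lower. After rescaling 12 were higher and 4 lower, against 36.5% each of all genes, and P4hb, Creb3l1 and Ppib were no longer called. Adamts2 and Ddr2 had a sham mean under 1 and could enter the table through injured kidney, and without them 13 of 17 were higher and 4 lower, or 10 and 4 after rescaling. On the deposited scale the list had a median log2 fold change of 1.03. Sparc, a secreted collagen-binding protein, rose from 37.6 FPKM ± 9.33 (SD, n = 4) to 488 ± 37.6 (3.69). Mrc2, an endocytic collagen receptor, was higher by 3.50, and Fkbp10, a chaperone of the endoplasmic reticulum, by 3.42. The 4 lower genes were Colgalt2 (-0.89), a collagen galactosyltransferase, Tmem38b (-0.59), an ion channel of the endoplasmic reticulum, P3h2 (-0.58), a prolyl 3-hydroxylase, and Mia3 (-0.27), which helps load procollagen for export. After rescaling Tmem38b was at -1.05, P3h2 at -1.05 and Mia3 at -0.75. From UUO7 to R4W 13 of the 19 were lower and 4 higher, where 30.8% of all genes were lower and 17.6% higher. After rescaling 12 were lower and 4 higher, against 23.2% and 25.1%, and Ddr1 was no longer called. The 4 higher genes were Colgalt2 (0.87), P3h2 (0.64), Tmem38b (0.25) and Mia3 (0.21). The collagen receptor Ddr2 was higher by 2.03 in UUO7 and was not called between R4W and UUO7 (-0.02, limma adjusted p = 0.922, and 0.07 after rescaling).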

How the data were processed

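Polyadenylated RNA of 24 mouse kidneys was analysed from a table of 14785 genes deposited by the authors, with 1 value per gene and library. No header or label names a unit, and the values the authors deposited were taken as FPKM. The submitters' processing notes name FastQC, RSEM, Bowtie2, DESeq2 and the build mm10, without role or order. The authors' deposited log2 fold changes and adjusted p-values are used only where the text names that table, and the base and direction of its log2 values were inferred from the sample columns. Groups and replicate numbers come from the sample titles.

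Genes were tested with limma 3.58.1 under R 4.3.3, using moderated variances with a mean trend, on log2(FPKM + 1), all 24 libraries in one model with a coefficient per group and Benjamini-Hochberg adjustment over all genes. Within-library ratios were tested by exact two-sided permutation (Python 3.11.15, scipy 1.17.1). The table holds no counts, so no count model was used. Coordinates of 31 of the 32 genes are the same in GENCODE M21, the exception being Lox. On simulated data of 14785 genes for UUO7 against sham, limma called 89 of 100 genes changed by 1 on the log2 scale, 99 of 100 changed by 2, and 10 unchanged genes. The members, roles and lists were chosen with earlier results of these data known. Every gene of the set is named once. For tests of other settings, up to 3 genes per role were followed, those of highest mean and of largest change. Alternatives were rescaling, a pseudocount of 0.1 or 10, genes of at least 5 FPKM only, fits of the 2 groups alone, without UUO2 or with a replicate block, R4W replicate 2 placed in R2W, and leaving out each library in turn. Leaving out the 3 libraries of raised adipose markers was added after seeing the data.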

Additional observations from a re-analysis of the deposited data

Results flagged for a closer look

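Each gene was checked in each group for a kidney far from the other 3, with a test that flags about 1 in 20 groups by chance. Of 192 checks 14 were positive, where chance gives 9.6. Sham replicate 2 accounted for 5 of them and was the highest in each: Col1a1 at 3.71 FPKM (1.56 to 1.80 in the others), Col1a2 at 9.06 (4.46 to 5.20), Col5a1 at 1.37 (0.58 to 0.64), Lox at 1.06 (0.29 to 0.40) and Loxl4 at 2.16 (0.53 to 0.68). In that kidney the marker sum was 96.7 for fibroblasts and pericytes (40.4 to 51.5 in the other sham kidneys), 281 for adipose tissue (39.8 to 48.1), 34.2 for urothelium (1.45 to 2.31), 75.8 for endothelium (41.1 to 42.9) and 14.4 for smooth muscle (6.13 to 8.74). Their part in these values was not tested. UUO7 replicate 3 stood apart in Col7a1 (13.8 FPKM, others 11.2 to 11.6), Loxl3 (4.39, others 5.91 to 6.18) and Pcolce (186.1, others 159 to 163), and UUO7 replicate 4 in Plod1 (33.06, others 30 to 30.3). In UUO2, Col14a1 was low in replicate 3 (1.68 FPKM, others 3.56 to 3.68) and Col26a1 low in replicate 1 (3.07, others 3.58 to 3.66). After reversal, Col6a4 was high in R1W replicate 1 (6.23, others 0.84 to 1.67), Col27a1 high in R4W replicate 2 (21.92, others 17.8 to 17.9) and Plod3 low in R4W replicate 4 (29.46, others 37.7 to 39.1).

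In 4 genes every UUO2 kidney was below and every UUO7 kidney above all sham kidneys, a pattern that 2.04% of all genes showed. The log2 difference between UUO7 and UUO2 was 2.68 for Col7a1, 2.21 for Col14a1, 2.16 for Col6a4 and 2.00 for Col5a2. That pattern chose the 4 genes, so these differences are given with no test. Col6a4, with a sham mean of 0.22 FPKM, could enter the table through its level in injured kidney. In UUO2 against sham limma did not call Col6a4, and the authors' deposited table had it lower (-1.94, adjusted p = 4.98e-09). The depth of the UUO2 libraries is unknown, and library and time cannot be told apart there.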

How the results depend on the processing

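Of the 9 counts of called genes, those for UUO7 against sham, UUO7 against UUO2, R4W against UUO7 and R1W, R2W and R4W against sham stayed within 1.5 times their value under each alternative run. The count for UUO2 against sham fell from 24 to 14 with a pseudocount of 10. That for R4W against R1W fell from 11 to 2 with only the 2 groups fitted and to 1 without the 3 libraries of raised adipose markers. The cause was not tested, although both fits hold fewer samples. Leaving out single libraries gave 4 to 10 called genes for R1W against UUO7, 4 to 11 for R4W against R1W, 22 to 25 for R4W against UUO7, 18 to 22 for UUO2 against sham, 30 to 31 for UUO7 against sham, 28 to 29 for UUO7 against UUO2, and for R1W, R2W and R4W against sham 29 to 30, 28 to 29 and 25 to 27.

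Rescaling turned the sign of 19 of the 288 fold changes (32 genes in 9 comparisons), with 1 called on both scales (P4ha1 in R1W against sham). In UUO7 against sham these were Col26a1 (-0.24) and P4ha1 (-0.015), in R4W against UUO7 Col26a1 (0.0083) and Col20a1 (0.04), in UUO7 against UUO2 P4ha2 (-0.32) and Plod2 (-0.18), in UUO2 against sham P4ha1 (-0.08) and in R4W against R1W Plod2 (0.04). The other 11 were against sham after reversal, among them Col5a2 (-0.01) and Col27a1 (-0.31) in R4W. P4ha1 (-0.10) was no longer called in R4W against UUO7. Without the adipose-marker libraries, R4W against UUO7 turned for Col6a1 (-0.0492) and Col26a1 (0.0104). Leaving out single libraries gave -0.0543 to 0.163 for Col6a1 and -0.121 to 0.022 for Col26a1 in that comparison.

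With a pseudocount of 1 in both genes, the log2 ratio differences to Col1a1 that passed the exact permutation test (adjusted p = 0.0457) were, in UUO7 against sham, 0.59 for Col3a1, -0.23 for Col1a2, -2.57 for Serpinh1 and -1.44 for Lox, and 0.49 for Serpinh1 in R4W against UUO7. The added 1 sets much of the sham ratios, where Col1a1 and Lox are low. Serpinh1 in R4W against UUO7 had the smallest possible unadjusted p with and without the added 1, so its pass rests on the comparisons with sham. Col1a2 in R4W against UUO7 turned to -0.005 there and to -0.0084 with R4W replicate 2 placed in R2W, and it ran from -0.0413 to 0.0475 with single libraries left out.

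Replicate numbers recur in every group, but same-numbered kidneys are different animals, and in no comparison did all 4 same-numbered pairs correlate above 0.1 in their deviations from the group means (lowest -0.33, highest 0.45). With the replicate number as a block, 9 genes were called in R1W against UUO7 and also 9 in R4W against R1W, and the other counts stayed within 1.5 times. The block added Col14a1 to the calls of R4W against UUO7 and Col6a3 to those of R1W against UUO7. It removed Lox, Loxl1 and Loxl3 from UUO2 against sham, Loxl4 from UUO7 against UUO2, Col1a1, Col5a1 and Serpinh1 from R1W against UUO7, and Col1a2 and Loxl1 from R4W against R1W. It changed no other call of the 32 genes.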
